A study of Mus musculus with 6 samples.

Results

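Serpins are a family of proteins that mostly inhibit serine or cysteine proteases, and their genes were described here in the epididymal fat of mice on a normal or a high-fat diet. The members were the genes whose GENCODE M21 symbol starts with Serpin and whose biotype is protein coding. Of 54532 genes in the table, 61 were members, and 29 of them had 30 or more counts in total over the 6 libraries. The other 32 comprised 14 with fewer counts and 18 at 0 in every library. The lowest total inside the limit was 42 (Serpinb6c) and the highest outside it was 27 (Serpina1c).

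The study asked by RNA-Seq what obesity changes in the fat around the epididymis, the visceral depot of male mice. Male C57BL/6J mice were fed a normal diet (ND) with 4.5% fat or a high-fat diet (HFD, the formula D12492) with 60% fat, from 4 weeks of age and for 16 weeks. The HFD mice are given as 20 weeks old at sampling, and no age at sampling is given for the ND mice. The labels give all samples as untreated, and 3 samples were sequenced per diet. Whole tissue was used, and the sources do not say whether a sample was 1 mouse or a pool, so p-values measure the spread between these samples only.

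The libraries held between 16996896 and 18859320 counts, and the 29 members together took 0.190% to 0.226% of the counts in ND fat and 0.252% to 0.272% in HFD fat. The 7 adipocyte markers were present in every library, with a summed level between 10684 and 39524 CPM (counts per 1000000 of a library's total after TMM scaling), while 7 markers of epididymal epithelium summed to 0.460 to 2.49 CPM. The HFD libraries were not alike. The summed level of 8 macrophage markers was 656 to 679 CPM on ND and 1837, 1285 and 2759 CPM in HFD 1, 2 and 3, and 6 of the 8 passed the test as higher. The adipocyte sum was 30310 to 39524 CPM in ND fat and ran in the opposite order in HFD fat, with 17176, 26728 and 10684 CPM, and 2 of the 7 markers (Pnpla3 and Cfd) passed as lower. Cfd made up most of the fall in this sum, from a mean of 13603 CPM on ND to 1274 CPM on HFD. Adipoq, Plin1, Cidec, Lipe and Fabp4 had log2 fold changes between -0.79 and -0.08 and did not pass. In bulk tissue, fewer cells of a type and less RNA per cell cannot be told apart. ND 3 stood apart in 7 epithelial markers, whose sum was 167 CPM there and 6.61 to 8.75 CPM in the other libraries.

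An inhibitory serpin offers a protease a flexible stretch near its carboxyl end, the reactive centre loop, as bait. The protease cuts the loop, which then folds into the body of the serpin and drags the trapped enzyme with it. The hinge at the start of the loop is alike in many inhibitory members and allows this folding, and the residues after it differ and decide which protease is caught. Clade A members such as antitrypsin (Serpina1) and antichymotrypsin (Serpina3) are secreted and are known chiefly from the liver. Clade B members mostly stay inside the cell and guard it against its own lysosomal or granule proteases. The other clades include C1 inhibitor (Serping1), which restrains complement, and members that inhibit no protease, such as the collagen chaperone Serpinh1. The mouse carries many tandem copies of Serpina1, Serpina3 and several clade B genes.

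The loop-coding stretches of members that changed are shown first, since the loop is where copies of 1 family differ. Each is read 5′ to 3′ on the coding strand from GENCODE M21 (GRCm38). Capitals mark the first 27 bases, which code for the hinge part, and each stretch lies in a coding exon. The first set holds the 6 members that fell on HFD, with Serpina3n as the most abundant relative that did not pass the test.
Serpina3b (chr12:104138659-104138733, plus strand, exon 5 of 5): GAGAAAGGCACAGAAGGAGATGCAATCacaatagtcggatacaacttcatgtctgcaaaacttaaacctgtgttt
Serpina3i (chr12:104268474-104268548, plus strand, exon 6 of 6): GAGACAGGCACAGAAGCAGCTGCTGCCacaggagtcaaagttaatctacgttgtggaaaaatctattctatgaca
Serpina3j (chr12:104319680-104319754, plus strand, exon 4 of 4): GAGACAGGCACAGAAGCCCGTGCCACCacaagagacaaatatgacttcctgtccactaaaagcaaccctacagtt
Serpina3k (chr12:104345263-104345331, plus strand, exon 5 of 5): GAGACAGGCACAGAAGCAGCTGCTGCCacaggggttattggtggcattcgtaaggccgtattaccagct
Serpina3m (chr12:104393763-104393837, plus strand, exon 5 of 5): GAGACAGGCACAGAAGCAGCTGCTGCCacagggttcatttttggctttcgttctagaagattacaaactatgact
Serpina1a (chr12:103853771-103853836, minus strand, exon 6 of 6): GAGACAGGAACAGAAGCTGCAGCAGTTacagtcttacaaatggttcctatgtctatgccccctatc
Serpina3n (chr12:104413442-104413516, plus strand, exon 5 of 5): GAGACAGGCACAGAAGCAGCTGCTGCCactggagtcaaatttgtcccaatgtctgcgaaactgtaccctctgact

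Serpina3i, Serpina3k and Serpina3m carry the same 27 capital bases as Serpina3n and differ after them. Over the 10 pairs of the 5 Serpina3 genes that fell, identity was 73.5% to 91.0% over the whole coding sequence, 74.1% to 100% in the hinge part and 42.6% to 62.5% in the rest of the loop. Among these stretches the identity was lowest after the hinge, where a serpin meets its protease. The second set holds 5 of the 6 members that rose, from 3 subfamilies.
Serping1 (chr2:84765667-84765726, minus strand, exon 8 of 8): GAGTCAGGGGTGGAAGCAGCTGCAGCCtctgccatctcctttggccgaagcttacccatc
Serpinf1 (chr11:75410230-75410295, minus strand, exon 8 of 8): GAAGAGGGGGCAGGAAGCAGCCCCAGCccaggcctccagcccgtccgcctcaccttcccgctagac
Serpinb6a (chr13:33918128-33918199, minus strand, exon 8 of 8): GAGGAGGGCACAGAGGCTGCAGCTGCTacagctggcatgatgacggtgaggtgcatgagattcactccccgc
Serpinb6b (chr13:32978201-32978266, plus strand, exon 7 of 7): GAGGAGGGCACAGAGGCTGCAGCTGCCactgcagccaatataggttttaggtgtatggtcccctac
Serpinb9b (chr13:33039796-33039873, plus strand, exon 7 of 7): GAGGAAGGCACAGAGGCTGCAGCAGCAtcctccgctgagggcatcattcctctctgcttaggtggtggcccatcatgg

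Of the 29 members, 26 passed the filter on low counts and were tested. In edgeR's quasi-likelihood fit, 6 were higher on HFD (among them Serpinb9b, Serpinb6b, Serpinb6a, Serpinf1 and Serping1) and 6 were lower (Serpina3j, Serpina3k, Serpina3b, Serpina3i, Serpina3m and Serpina1a) at an adjusted p under 0.05. The other 14 did not pass. Over all 15751 genes tested, 9.85% were called higher and 6.04% lower. The median log2 fold change of HFD against ND was 0.24 over the 26 members and 0.0074 over all genes. The HFD and ND values did not overlap in 15 of the 26, with HFD above ND in 8 and below in 7, and in 40.9% of all genes. All 6 members that fell are Serpina genes of chromosome 12, and 3 of the 6 that rose are Serpinb genes of chromosome 13.

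**Figure D1:**
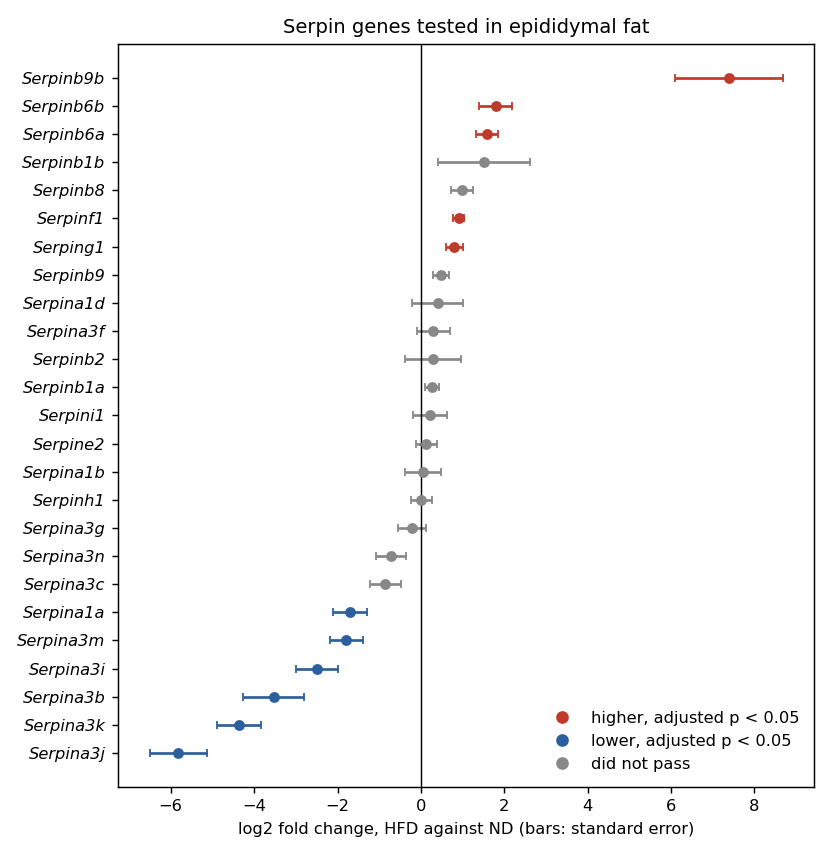
Log2 fold change of HFD against ND (x axis, bars are the standard error from edgeR's fit) for 25 of the 26 tested serpins, 3 libraries per diet. Red marks 5 of the 6 members called higher, blue the 6 called lower and grey the 14 that did not pass. The range runs from -5.82 (Serpina3j) to 7.39 (Serpinb9b).

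Among the genes of plasminogen activation, in which several serpins act, Plau (urokinase) rose with a log2 fold change of 1.42 (adjusted p = 0.0206) and its receptor Plaur rose by 2.65 (adjusted p = 0.0139). Plat, the tissue-type activator, did not pass (log2 fold change -0.17, adjusted p = 0.441). Vtn, which codes for vitronectin, an adhesive glycoprotein of matrix and plasma, fell from 29.2, 35.3 and 30.8 CPM to 14.2, 15.8 and 10.6 CPM (log2 fold change -1.24, adjusted p = 0.00888). Lrp1, a receptor that clears complexes of serpins and proteases, rose from a mean of 720 to 1486 CPM (log2 fold change 1.04, adjusted p = 0.0269). Plau, Plaur and Lrp1 took the order of the macrophage markers on HFD, with HFD 3 highest and HFD 2 lowest. The part of the macrophage markers in these values was not tested. Plg, which codes for plasminogen itself, had 0 counts in each ND library and 2 in each HFD library, under the floor of 3 counts.

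Serpine2, which codes for protease nexin 1, an inhibitor of thrombin and urokinase, did not pass. Its level was 63.5, 31.3 and 55.0 CPM in ND fat and 50.1, 53.3 and 60.9 CPM in HFD fat. ND 2 was lowest and the diets overlapped (log2 fold change 0.13, SE 0.25, adjusted p = 0.75). Without ND 2 the sign turned, to -0.11. Serpine3, of the same clade but on another chromosome, had 1 count in all.

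Serpinf1 codes for pigment epithelium-derived factor, a secreted serpin without inhibitory activity that binds the triglyceride lipase Pnpla2. It rose from 118, 125 and 127 CPM on ND to 203, 251 and 242 CPM on HFD. Both groups were tight, with means of 123 ± 4.57 and 232 ± 25.1 CPM (SD, n = 3 each). The log2 fold change was 0.91 (SE 0.13, adjusted p = 0.00918). Without ND 1 it was 0.88 and missed the threshold, with an adjusted p of 0.0546. The level of Pnpla2 was 1966 to 2418 CPM in ND fat and 756 to 1759 CPM in HFD fat, with a log2 fold change of -0.77 that did not pass (adjusted p = 0.135).

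Serping1 codes for C1 inhibitor, which blocks the complement proteases C1r, C1s and the MASPs and also factor XIIa and plasma kallikrein. Its level was 324, 220 and 307 CPM in ND fat and 479, 555 and 445 CPM in HFD fat, a 1.74-fold rise with no overlap (log2 fold change 0.80, SE 0.20, adjusted p = 0.0351). ND 2 was the lowest library. Its complement targets C1ra and C1s1 had log2 fold changes of -0.17 (adjusted p = 0.372) and -0.25 (adjusted p = 0.243), and neither passed. Masp1 fell by 2.73 on the log2 scale (adjusted p = 0.0144), from 10.9, 24.7 and 6.71 CPM to between 2.07 and 2.17 CPM. The call of Serping1 was among the weaker ones, with an adjusted p of 0.0877, 0.0944, 0.0902 and 0.128 without ND 1, ND 2, ND 3 and HFD 1.

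Serpinh1 codes for HSP47, a chaperone of the endoplasmic reticulum that folds procollagen and inhibits no protease. It had the highest level per gene length of all members, with a mean of 278 ± 94.1 FPKM in ND fat and 277 ± 24.0 FPKM in HFD fat (fragments per kilobase of gene length and per 1000000 fragments, as deposited by the authors). In CPM it was 601, 917 and 487 on ND and 626, 651 and 739 on HFD, so that the HFD values lay within the ND range. The log2 fold change was 0.01 (SE 0.25, adjusted p = 0.988). Its sign depended on the settings, since it was -0.02 with DESeq2's Wald test. Of its clients, Col1a1, Col1a2 and Col3a1 had log2 fold changes of 0.12, -0.03 and -0.32, and none passed (adjusted p between 0.627 and 0.957).

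**Figure D2:**
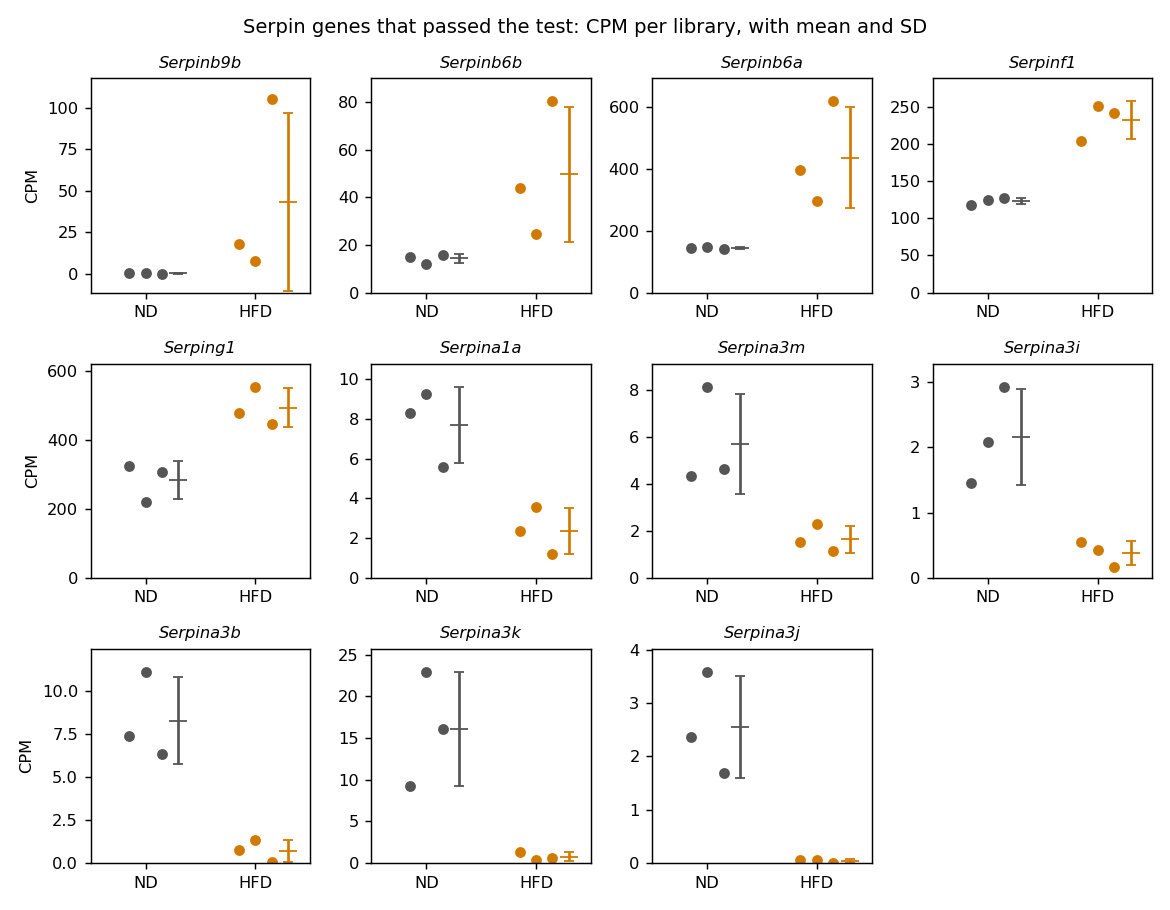
CPM (y axis, linear, 1 scale per panel) in each of the 3 ND (grey) and 3 HFD (orange) libraries for 11 of the 12 serpins that passed the test, in the order of their log2 fold change. Points are libraries 1 to 3 from left to right, and the bar beside them is the mean with its SD. No panel shows an overlap between the diets, and the HFD points of Serpinb9b run from 7.46 to 105 CPM.

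Of the Serpinb genes on chromosome 13, Serpinb6a, Serpinb6b and Serpinb9b rose. The annotation places 15 members there within 1161 kb (32842092 to 34002794), of which 8 had 30 or more counts and 6 were tested. In this cluster 3 of 6 were higher on HFD, none was lower and all 6 log2 fold changes were above 0, with a median of 1.55. For comparison, 9.85% of all genes tested were higher and 6.04% lower, with a median log2 fold change of 0.0074. On chromosome 1, where 11 Serpinb genes lie within 749 kb, 3 had 30 or more counts and neither of the 2 that were tested (Serpinb2 and Serpinb8) passed.

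Serpinb6a is the mouse counterpart of human SERPINB6, an intracellular inhibitor that binds cathepsin G and other serine proteases. It was the most abundant clade B member, at a mean of 27.4 ± 0.711 FPKM in ND fat and 81.3 ± 30.5 FPKM in HFD fat. Its level was 146, 148 and 143 CPM in ND fat and 396, 297 and 619 CPM in HFD fat. The ND libraries were nearly equal and every HFD library was above them (log2 fold change 1.59, SE 0.27, adjusted p = 0.0128). Serpinb6a overlaps exons of Nqo2, Ripk1 and 1110046J04Rik on the opposite strand, and the strand setting of the counting is not given in the sources used here. The log2 fold changes of these genes were 0.61, 0.29 and 1.60, of which only that of 1110046J04Rik passed (adjusted p = 0.0204), at 19 to 72 counts against 2560 to 10767 for Serpinb6a.

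Serpinb6b, a paralog of Serpinb6a in the same cluster, was at 14.99, 12.1 and 15.97 CPM in ND fat and 43.9, 24.7 and 80.2 CPM in HFD fat. It rose 3.45-fold (log2 fold change 1.79, SE 0.40, adjusted p = 0.0273). Both genes were highest in HFD 3 and lowest in HFD 2. The longest transcript of each shared no window of 100 bases with another gene's transcript, so reads of that length could tell these 2 transcripts apart. Other transcripts of the genes were not searched.

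Serpinb9b is a paralog of Serpinb9, which inhibits granzyme B. It had 5, 6 and 3 counts in ND fat and 328, 124 and 1825 in HFD fat. Serpinb9b was thus near the floor of 3 counts on ND, and HFD 3 held most of its counts. The log2 fold change was 7.39 (SE 1.29, adjusted p = 0.0138). It was 5.60 without HFD 3 and still passed (adjusted p = 0.00148), whereas without ND 1, ND 2 or ND 3 the adjusted p was 0.0634, 0.0648 and 0.0566. An antisense gene over it, Gm36099, had 9 counts in all. Per gene length Serpinb9b went from rank 27 of 29 on ND to rank 10 on HFD. Serpinb9 itself was at 41.1 to 54.9 CPM in ND fat and 55.3 to 79.8 CPM in HFD fat, without overlap, but did not pass (log2 fold change 0.48, SE 0.19, adjusted p = 0.121).

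Serpinb8, an intracellular serpin known to inhibit furin, lay just outside the threshold. Its level was 16.6, 13.4 and 14.97 CPM in ND fat and 29.4, 18.8 and 41.0 CPM in HFD fat. The values did not overlap, with a log2 fold change of 0.99 (SE 0.27, adjusted p = 0.0512). It passed with DESeq2 (adjusted p = 0.0107) and without HFD 2 (log2 fold change 1.23, adjusted p = 0.00508). DESeq2 also called Serpinb1c and Serpinb12 higher, which edgeR's filter had removed. Without a filter, edgeR called Serpinb12 (adjusted p = 0.0339) but not Serpinb1c (adjusted p = 0.114). Serpinb1c had 0 counts in each ND library and 47, 7 and 141 on HFD, which was at least 22.9-fold higher than the floor of 3 counts per ND library (DESeq2 adjusted p = 1.05e-06). HFD 3 held most of these counts, and without it the bound was 9.24-fold. Serpinb12 had 0, 1 and 4 counts in ND fat and 22, 8 and 62 in HFD fat, a ratio of 19.7 with an exact 95% interval of 8.12 to 62.0 that covers counting error only (DESeq2 adjusted p = 0.00198). The ratio was 9.60 without HFD 3 and 62.9 without ND 3. With DESeq2, 11.2% of 18348 genes were called higher and 8.81% lower.

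Of the remaining clade B members, Serpinb1a, an inhibitor of neutrophil elastase, was at 10.8 to 12.9 CPM in ND fat and 12.7 to 16.6 CPM in HFD fat (log2 fold change 0.26, adjusted p = 0.316). Its copy Serpinb1b had 0, 1 and 20 counts in ND fat and 16, 9 and 30 in HFD fat. ND 3 held nearly all ND counts of Serpinb1b, and this is the library with the high epithelial marker sum, whose part in the value was not tested. The log2 fold change was 1.51 (SE 1.10, adjusted p = 0.371), and 4.88 without ND 3 (adjusted p = 0.0517). Serpinb2, which inhibits urokinase, had 3 to 19 counts in ND fat and 6 to 21 in HFD fat (log2 fold change 0.30, adjusted p = 0.787). Serpinb6c was not tested, with 13, 0 and 14 counts in ND fat and 0, 7 and 8 in HFD fat.

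Of the 11 clade B members with 30 or more counts, 10 had their highest HFD value in HFD 3. Serpinb6c is among these 10 with only 0, 7 and 8 counts in HFD 1, 2 and 3. The share of all genes that are highest in HFD 3 was not counted. In 8 of the 11 members the HFD libraries stood in the order HFD 3, HFD 1, HFD 2. This was also the order of the macrophage marker sum and was found in 32.29% of all genes tested. The 6 called macrophage markers had log2 fold changes between 0.79 (C1qa) and 3.72 (Cd68). Mast cell markers had the same order, with 34.2 to 59.1 CPM in ND fat and 79.5, 54.4 and 199 CPM in HFD fat, and none of the 6 passed. The marker sums of neutrophils (14.1, 13.5 and 18.3 CPM in HFD 1, 2 and 3) and of T and NK lymphocytes (15.6, 14.5 and 16.2 CPM) had this order too. Within the neutrophil sum Csf3r had it (8.35, 5.35 and 12.4 CPM). S100a8 (4.69, 7.10 and 5.58 CPM) and S100a9 (0.928, 0.602 and 0.115 CPM) did not. The part of these cell types in the clade B values was not tested. Ctsb, Ctsl, Ctss and Ctsk, the lysosomal cathepsins B, L, S and K, all rose. Their log2 fold changes were 1.72, 1.72, 3.62 and 3.30 (adjusted p between 0.00448 and 0.02). Whether the clade B members that rose act on these cathepsins was not tested. Ctsg (cathepsin G), the target named above for Serpinb6a, had 0, 0 and 2 counts in ND fat. It had 7, 0 and 34 in HFD fat and was not tested. Granzymes Gzma and Gzmb had log2 fold changes of -0.94 and -0.62, and neither passed (adjusted p = 0.229 and 0.28).

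**Figure D3:**
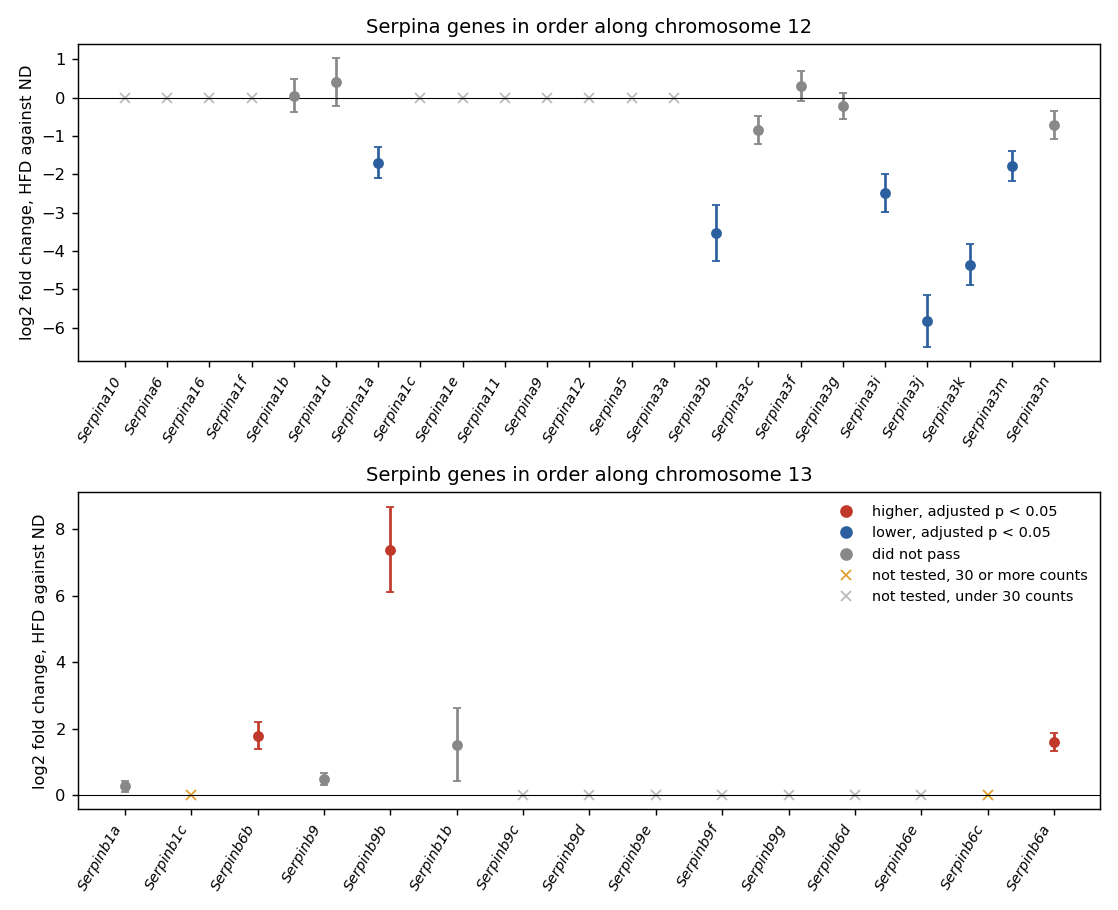
Log2 fold change of HFD against ND with its standard error (y axis) for the Serpina genes of chromosome 12 (top) and the Serpinb genes of chromosome 13 (bottom), in the order of their start positions and not to scale. Crosses on the 0 line mark members that were not tested. On chromosome 12 the 6 members that passed lie between -5.82 and -1.70, and on chromosome 13 the 3 that passed lie between 1.59 and 7.39.

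The Serpina genes on chromosome 12 made up the members that fell. There are 23 within 800 kb (103614786 to 104414329), of which 12 had 30 or more counts and all 12 of these were tested. In this cluster 6 of 12 were lower on HFD and none was higher, and 9 log2 fold changes were below 0, with a median of -1.27. Among all genes tested 6.04% were lower and 9.85% higher, and the median log2 fold change was 0.0074. The share of all genes with a log2 fold change below 0 was not counted. The 9 Serpina3 genes, tandem copies related to human antichymotrypsin, included 5 of the 6 that fell, and 8 of 9 had a log2 fold change below 0 (median -1.79).

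Serpina3k, known as kallikrein-binding protein, had the highest ND level of those that fell, while Serpina1a and Serpina3m were above it on HFD. It was at 9.22, 22.9 and 16.1 CPM in ND fat and 1.31, 0.361 and 0.633 CPM in HFD fat. Each HFD library was several times below the lowest ND library (log2 fold change -4.36, SE 0.53, adjusted p = 0.00651). Per gene length it went from rank 8 of 29 on ND to rank 22 on HFD. Serpina3k passed in each of the 6 fits that left out 1 library, with a log2 fold change of -5.02 without HFD 1.

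Serpina3j had 44, 62 and 34 counts in ND fat and 1, 1 and 0 in HFD fat. The ratio of ND to HFD was 65.5, with an exact 95% interval of 17.8 to 546 for counting error only. The fitted log2 fold change was -5.82 (SE 0.68, adjusted p = 0.00624) and rests on 2 counts on HFD. It passed in all 6 fits that left out 1 library.

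Serpina3b had 137, 192 and 127 counts in ND fat and 14, 22 and 1 in HFD fat (log2 fold change -3.53, SE 0.73, adjusted p = 0.0221). HFD 3 was the lowest library, and the log2 fold change was -3.0 without it and -4.29 without HFD 2. Without ND 1, ND 2 or HFD 1 the adjusted p was 0.0686, 0.0788 and 0.095. Serpina3i had 27, 36 and 59 counts in ND fat and 10, 7 and 3 in HFD fat (log2 fold change -2.49, SE 0.50, adjusted p = 0.0204). Serpina3m, which shares 60 exon bases with Serpina3k in the annotation, had 81, 141 and 93 counts in ND fat and 28, 38 and 20 in HFD fat (log2 fold change -1.79, SE 0.39, adjusted p = 0.0251). In all these genes every HFD library was below every ND library. Windows of 100 bases shared with another gene's transcripts made up 4.85% of Serpina3k, 6.09% of Serpina3m and 2.33% of Serpina3i, and none of Serpina3b or Serpina3j.

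The Serpina3 genes of highest level did not pass. Serpina3n, a secreted inhibitor of leukocyte elastase and granzyme B, was at 270, 583 and 309 CPM in ND fat and 200, 335 and 176 CPM in HFD fat. ND 2 was highest and the diets overlapped (log2 fold change -0.71, SE 0.36, adjusted p = 0.213). Serpina3c was at 210, 270 and 212 CPM in ND fat and 121, 198 and 64.7 CPM in HFD fat, without overlap (log2 fold change -0.85, SE 0.37, adjusted p = 0.153), and it passed without HFD 2 (log2 fold change -1.31, adjusted p = 0.0199). Serpina3g, which acts inside cells on cathepsins, was at 3.73 to 7.55 CPM in ND fat and 3.49 to 6.04 CPM in HFD fat (log2 fold change -0.22, adjusted p = 0.684). Serpina3f was at 0.597 to 1.29 CPM in ND fat and 1.21 to 1.36 CPM in HFD fat (log2 fold change 0.30, adjusted p = 0.626).

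In 7 members (Serpina1a, Serpina1b, Serpina3b, Serpina3c, Serpina3j, Serpina3m and Serpina3n) the highest ND value was in ND 2 and the HFD libraries stood in the order HFD 2, HFD 1, HFD 3. The adipocyte marker sum had the same order on HFD and was also highest in ND 2 among the ND libraries, and its part in these values was not tested. The counts of Serpina3j (1, 1 and 0 in HFD 1, 2 and 3) and Serpina1b (16, 17 and 8) are too close to tell HFD 2 from HFD 1. For Serpina1b the ND counts of 14, 15 and 13 do not resolve ND 2 as the highest either. The share of all genes with this pattern of libraries was not counted, so the pattern is not shown to be particular to these 7 members.

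The promoters of Serpina3b, Serpina3c and Serpina3n are shown because they share a stretch of sequence. They are RefSeq promoters of GRCm38.p6, from 250 bases before to 50 after the start, on the gene's strand. Capitals mark the longest run of bases common to all 3.
Serpina3b (chr12:104127746-104128045, plus strand): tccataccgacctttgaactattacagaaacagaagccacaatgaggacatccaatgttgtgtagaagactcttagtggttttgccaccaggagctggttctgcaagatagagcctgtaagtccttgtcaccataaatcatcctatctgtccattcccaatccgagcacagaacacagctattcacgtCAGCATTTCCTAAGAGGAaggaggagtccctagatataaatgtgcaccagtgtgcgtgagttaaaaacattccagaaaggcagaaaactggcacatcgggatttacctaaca
Serpina3c (chr12:104153823-104154122, minus strand): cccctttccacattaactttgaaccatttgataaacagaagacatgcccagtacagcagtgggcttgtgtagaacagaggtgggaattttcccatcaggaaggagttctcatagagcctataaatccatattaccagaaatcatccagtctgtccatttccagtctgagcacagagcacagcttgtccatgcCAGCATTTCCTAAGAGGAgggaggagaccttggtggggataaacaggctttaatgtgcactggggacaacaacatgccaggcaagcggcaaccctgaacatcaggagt
Serpina3n (chr12:104406458-104406757, plus strand): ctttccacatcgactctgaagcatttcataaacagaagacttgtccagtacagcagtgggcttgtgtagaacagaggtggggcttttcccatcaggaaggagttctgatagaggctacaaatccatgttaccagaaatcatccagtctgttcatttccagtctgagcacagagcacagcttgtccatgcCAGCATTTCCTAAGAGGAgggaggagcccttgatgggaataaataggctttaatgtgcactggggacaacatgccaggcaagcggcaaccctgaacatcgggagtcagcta

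The run of 18 bases, CAGCATTTCCTAAGAGGA, was defined from these 3 promoters, so its presence in them follows from the choice. Of 32851 mouse promoters, searched on either strand, no other held it whole. The promoters of Serpina1a, Serpina1b and Serpina3j did not hold it. These genes had the same order of libraries, though it was not resolved at the counts of Serpina1b and Serpina3j. Serpina3i, with another order of libraries, shared 16 bases with Serpina3b. They start at base 188 of the Serpina3b window, where the run starts at base 189, so they cover most of the run. Serpina3c and Serpina3n were 89.9% identical over the whole window, Serpina3b and Serpina3n 68.6% and Serpina3b and Serpina3c 65.3%. Of the 29 members, 24 had an entry in the promoter table, and Serpina3k, Serpina3m, Serpinb1a and Serping1 were among those that had none. Some genes have 2 entries, so that 29 promoters were searched on both strands. TTCNNNGAA, the letters that STAT factors bind, were in 7 of the 29 promoters (5 of 24 genes) and in 8.3% of all promoters. TATAAA was found in 9 of the 29 (7 genes) and in 13.6% of all promoters. TGANTCA (the AP-1 letters) was in 7 (6 genes) and 7.81%. These 6 include Serpina1a, Serpina1b and Serpina1d, whose promoters are 86.9% to 89.8% identical. CAGACA (the SMAD letters) was in 4 and 21%, AGGTCA (a nuclear receptor half-site) in 3 and 16.3%, and CACGTG (the E-box of MYC and related factors) in 0 and 7.15%. These matches are descriptions of the letters in the window.

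Serpina1 codes for antitrypsin, known as an inhibitor of neutrophil elastase, in several closely related mouse copies. Serpina1a was at 8.30, 9.27 and 5.57 CPM in ND fat and 2.35, 3.55 and 1.21 CPM in HFD fat and fell (log2 fold change -1.70, SE 0.41, adjusted p = 0.0344). Serpina1b and Serpina1d reached at most 1.02 CPM in every library and did not pass, with log2 fold changes of 0.05 (adjusted p = 0.942) and 0.40 (adjusted p = 0.689). Of the 100-base windows of Serpina1a, 49.9% also occur in another gene's transcripts, against 20.6% for Serpina1b and 29.3% for Serpina1d, so the division of reads among the copies is uncertain. The 3 coding sequences were 91.5% to 96.5% identical, but only 79.5% to 87.2% in the part of the loop after the hinge.

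Since Serpina1 and Serpina3 are known chiefly from the liver, 6 hepatocyte markers were set beside them. Their summed level was 15.2 to 21.9 CPM in ND fat and 4.31 to 9.14 CPM in HFD fat. Alb made up most of it (11.4 to 19.5 CPM on ND, log2 fold change -1.92, adjusted p = 0.0847), Apoc3 passed as lower (log2 fold change -1.92, adjusted p = 0.0289) and Fgb, the fibrinogen beta chain, had 0 counts in every library. Ahsg (fetuin A) went the other way without passing, with 8, 5 and 15 counts on ND against 18, 6 and 45 on HFD (log2 fold change 1.40, adjusted p = 0.228). Of the 6 markers, 3 were tested and 1 passed. The part of these markers in the Serpina values was not tested. Prtn3 and Elane, serine proteases of neutrophil granules and known targets of clade A members, had log2 fold changes of -2.66 (adjusted p = 0.00752) and -0.97 (adjusted p = 0.387). The summed level of 8 neutrophil markers was 6.52 to 10.6 CPM in ND fat and 13.5 to 18.3 CPM in HFD fat, and its members went both ways. Of the 4 that were tested, S100a8 and Csf3r passed as higher (log2 fold changes 1.45 and 1.36, adjusted p = 0.0219 and 0.0459) and Camp passed as lower (log2 fold change -4.26, adjusted p = 0.0186).

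The call of 8 of the 12 members depended on 1 library or another, beside Serpinf1, which lost it without ND 1 only. Serpina1a, Serpina3i, Serpina3m, Serpinb6a, Serpinb6b and Serping1 each lost it without ND 1, ND 2, ND 3 or HFD 1, with adjusted p-values up to 0.126, 0.0683, 0.102, 0.0604, 0.0986 and 0.128. No log2 fold change of the 12 turned its sign in these fits. Without ND 1, ND 2, ND 3 and HFD 1 the number of members called higher was 1, 2, 2 and 3 and that of members called lower 2, 2, 3 and 2, and without HFD 2 they were 9 and 7. In the same 4 fits the number of genes called over the whole table was 492, 591, 1003 and 474, against 2504 with all libraries, and in the fit without HFD 2 it was 3940.

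Serpin mRNA as a whole was dominated by few genes. The summed FPKM of the 29 members was 768, 1041 and 723 in ND fat and 891, 1006 and 976 in HFD fat, so the totals overlapped. Serpinh1, Serping1, Serpina3n and Serpina3c together made up 81.2%, 85.8% and 80.5% of it on ND and 69.3%, 75.7% and 62.6% on HFD. Serpinb6a made up 2.69% to 3.68% on ND and 5.50% to 11.8% on HFD. In contrast, Serpina3n and Serpina3c each took a smaller share of the sum in every HFD library than in any ND library, 8.78% to 16.2% against 17.4% to 27.7% for Serpina3n. Mean FPKM was 10 or more in either diet for 10 members and under 1 in both for 9. Serpini1, the neuroserpin of the nervous system, was at 0.0679 to 0.124 FPKM in all libraries (log2 fold change 0.22, adjusted p = 0.738).

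**Figure D4:**
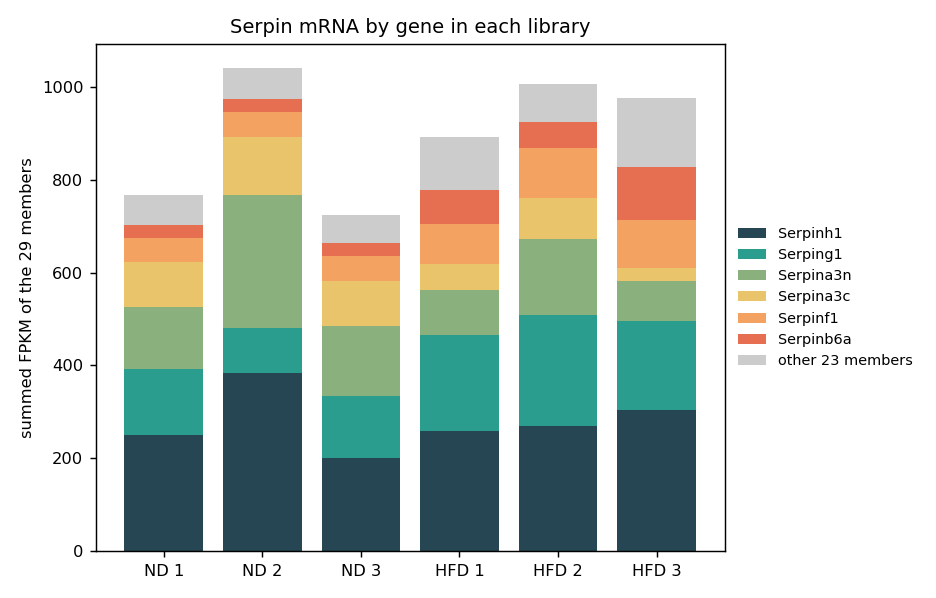
Summed FPKM of the 29 members (y axis) in each library, stacked by gene, with the 6 named members of the legend and the other 23 together. The totals run from 723 to 1041, and the parts of Serping1, Serpinf1 and Serpinb6a are larger in each HFD library than in any ND library.

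The serpins of blood clotting and of fibrinolysis in plasma were hardly detected. Serpinc1 (antithrombin) had 1, 6 and 5 counts in ND fat and 1, 2 and 10 in HFD fat, with 58.4% of its windows shared with transcripts of Zbtb37. Serpind1 (heparin cofactor II) had 6, 1 and 2 counts and then 1, 4 and 2, and Serpinf2 (antiplasmin) had 1, 1 and 11 and then 3, 1 and 5. Serpina5 (protein C inhibitor) had 1, 1 and 3 counts in ND fat and 1, 1 and 0 in HFD fat. Serpina12, which codes for the adipokine vaspin, had 1, 2 and 1 counts in ND fat and 1, 1 and 10 in HFD fat, and its target protease Klk7 had 3 counts in all. A difference between the diets was not detectable at this depth for any of them.

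In all, 42 genes for proteases, cofactors, receptors and clients of serpins were listed, of which 32 were tested. Of these 8 were higher on HFD and 5 lower, and 19 did not pass, with a median log2 fold change of 0.03. Over all genes tested, 9.85% were called higher and 6.04% lower. Beside those named above, F10, which codes for coagulation factor X, a target of antithrombin, rose with a log2 fold change of 3.67 (adjusted p = 0.00549). Thbd, which codes for thrombomodulin, fell by 1.57 on the log2 scale (adjusted p = 0.0156), and F3, which codes for tissue factor, fell by 0.38 (adjusted p = 0.0462). Hspa5, a chaperone of the same compartment as Serpinh1, had a log2 fold change of 0.88 and did not pass (adjusted p = 0.0886). The mast cell proteases Tpsb2 and Cma1 had log2 fold changes of 1.75 and 1.61 and did not pass either (adjusted p = 0.0757 and 0.109).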

How the data were processed

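RNA-Seq libraries of epididymal fat from 3 ND and 3 HFD samples were analysed, with diet and replicate taken from the labels. The authors deposited raw counts per gene and FPKM values for the same genes. The paper's methods name TopHat and Cufflinks on GRCm38, whereas the submitters' processing notes list CASAVA 1.8, fastp, HISAT2 2.0.5, featureCounts 1.5.0-p3, DESeq2 1.20.0 and the human builds GRCh38 and hg38, so the counting tool and its strand setting are uncertain. The library kit was NEBNext Ultra RNA. Mouse identifiers were matched to GENCODE M21 (GRCm38), where 54495 of 54532 were found.

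Counts were tested with edgeR 4.0.16 in R 4.3.3 (quasi-likelihood F-test, TMM, filterByExpr, robust=TRUE, diet as the only factor) over the whole table, with Benjamini-Hochberg adjustment and a threshold of 0.05. Standard errors were derived from the F statistic. With 3 libraries against 3, the smallest p of an exact permutation test is 0.1, so this test was not used. A floor of 3 counts per library corresponds to 0.149 to 0.18 CPM and covers counting error only. The fits were repeated with DESeq2 1.42.0 and limma-voom (limma 3.58.1), with other scalings and filters, with a block for the replicate number, with 1 library left out at a time, and with limma on log2(FPKM + 1) for genes of at least 0.5 FPKM in 3 libraries.

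The named genes were all members with 30 or more counts, with values per library for those that passed and for 10 listed members, and a list of 42 partner genes. The counts cover all members, and 1 of them is not reported here. The members, lists and tests were chosen with earlier results of these data known. Loop stretches were found by a pattern in the translated reading frame of the longest complete coding transcript.

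The tests were run on simulated counts with known changes first. No library was a copy of another. Each mouse had 1 diet, so a replicate number does not mark the same mouse in both diets. Whether it marks a shared cage, litter or batch is not given in the sources used here.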

Additional observations from a re-analysis of the deposited data

Results flagged for a closer look

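Of 6 serpin pseudogenes that stood outside the comparisons and were not tested, 5 had reads, and 2 of these are given for their higher counts on HFD. Serpina3h, a transcribed pseudogene of the Serpina3 group, had 2, 2 and 6 counts in ND fat and 13, 7 and 25 in HFD fat, with a mean of 0.856 CPM on HFD and 0.174 CPM on ND. Serpina3d-ps had 0, 1 and 0 counts in ND fat and 5, 14 and 6 in HFD fat, with a mean of 0.487 CPM on HFD and 0.0193 CPM on ND. For both, every HFD library was above every ND library, as in 21.9% of all genes tested. Serpina3e-ps and Serpinb1-ps1 had 3 counts each and Serpina4-ps1 had 1. Serpinb10, annotated as a polymorphic pseudogene, had 83 counts and was tested (log2 fold change -0.03, adjusted p = 0.971).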

How the results depend on the processing

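No called serpin changed direction under any alternative. With 1 library left out, the number of serpins called higher ranged from 1 to 9 (6 with all libraries), that of serpins called lower from 2 to 7 (6 with all), that of partner genes called from 5 to 19 (13 with all) and that of all genes called from 474 to 3940 (2504 with all). Limma on log2(FPKM + 1) without a filter called 2 serpins higher, 3 lower, 5 partner genes and 649 genes in all. DESeq2 called 3666 genes and added Serpinb12, Serpinb1c and Serpinb8. Limma-voom called 2361 and lost Serpinb9b, library size alone called 2331 and lost Serping1, and no filter called 2163, lost Serpinb6b and Serpinb9b and gained Serpinb12 and Serpinb8. The replicate block called 1886 genes, of which 1693 were also called without it, and 5 serpins each way, without Serping1 and Serpina3i. Same-numbered libraries did not deviate together (correlations -0.0675, -0.0386 and -0.00199), and 0 of 6 libraries correlated best with its own number. The causes were not tested. Among uncalled members the sign turned for Serpinh1 (-0.02 with DESeq2 and with its size factors, -0.0044 without a filter, -0.21 to 0.30 with 1 library left out) and Serpina1b (-0.01 with limma-voom, -0.17 to 0.31). With 1 library left out it also turned for Serpine2 (-0.11 to 0.34), Serpinb2 (-0.13 to 0.69), Serpina1d (-0.08 to 1.01), Serpina3f (-0.02 to 0.47) and Serpina3g (-0.47 to 0.07). Members under 10 counts per library are limited by depth.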
